A study of Mus musculus with 8 samples.

Results

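The RNA exosome subunits described here are 10 mouse genes, Exosc1, Exosc2, Exosc3, Exosc4, Exosc5, Exosc7, Exosc8, Exosc9, Exosc10 and Dis3, chosen by name from the 54838 genes of the count table, and all 10 passed the filter on low counts that left 10911 genes. RNA was measured in leukemic cells of acute myeloid leukemia (AML) carrying the RUNX1-RUNX1T1 fusion, on a C57BL/6 background. They had been transplanted into Ptprca recipients, congenic mice whose own blood cells carry a different form of CD45, and were isolated by fluorescence-based sorting. Per the labels the recipients were sublethally irradiated, whereas the methods of the study name irradiation only for its other leukemias. There were 4 samples from vehicle-treated mice and 4 from mice given AG636 at 100 mg/kg by oral gavage, b.i.d., and AG636 blocks DHODH, an enzyme of de novo pyrimidine synthesis. Per the study, the cells were sorted after a day of treatment, as cKit-positive and CD11b-negative in its figure legend and as cKit-high in its text, and a leukemia was propagated from frozen cells of a moribund mouse, so the samples may share a single donor leukemia. Its figure legend counts fewer mice in a group than there are samples here, and the labels do not tie samples to mice or say which came from bone marrow and which from spleen. The SDs and p-values below measure the spread between samples, which may be partly technical.

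The RNA exosome is a barrel-shaped complex that degrades and trims RNA from its 3′ end. A ring of RNase PH-like proteins (Exosc4 to Exosc9) forms the channel and has lost catalytic activity in animals. A cap of S1 and KH domain proteins (Exosc1, Exosc2 and Exosc3) sits on the ring and guides RNA into it. The cutting is done by Dis3, which binds the bottom of the barrel, and by Exosc10, which binds near the cap and is enriched in the nucleolus. In the nucleus the complex matures the 5.8S ribosomal RNA and small nucleolar RNAs and removes aberrant and antisense transcripts, and in the cytoplasm it takes part in messenger RNA turnover.

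The promoters of the cap subunits and of the catalytic subunits are shown because these are the genes on which the results below turn. The sequences are from RefSeq on build GRCm38.p6 and run from 250 bases before to 50 bases after a start site, 5′ to 3′ on the strand of the gene. They cover chr19:41933265-41933564 (minus strand) for Exosc1, chr2:31670465-31670764 (plus) for Exosc2, chr4:45320567-45320866 (minus) for Exosc3, chr14:99099721-99100020 (minus) for Dis3 and chr4:148558169-148558468 (plus) for Exosc10. Capitals mark matches on either strand to GCCATNTT (the core of the YY1 motif), the E-box CACGTG, the NRF1 motif, the ETS factor motif CCGGAAG, the SP/KLF factor motif GGGCGG, the NF-Y motif CCAAT or the core promoter element TATAAA.
Exosc1: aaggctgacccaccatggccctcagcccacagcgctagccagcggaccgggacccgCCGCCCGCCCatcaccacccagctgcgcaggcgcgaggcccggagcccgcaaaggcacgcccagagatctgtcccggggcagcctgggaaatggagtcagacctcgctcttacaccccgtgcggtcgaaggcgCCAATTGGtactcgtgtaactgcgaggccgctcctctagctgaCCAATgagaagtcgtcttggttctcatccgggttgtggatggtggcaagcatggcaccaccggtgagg
Exosc2: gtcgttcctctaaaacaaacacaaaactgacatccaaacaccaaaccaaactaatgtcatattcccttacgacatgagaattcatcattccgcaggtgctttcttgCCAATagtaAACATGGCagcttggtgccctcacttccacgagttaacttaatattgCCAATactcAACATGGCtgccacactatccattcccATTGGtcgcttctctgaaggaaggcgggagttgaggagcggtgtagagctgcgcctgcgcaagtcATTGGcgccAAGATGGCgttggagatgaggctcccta
Exosc3: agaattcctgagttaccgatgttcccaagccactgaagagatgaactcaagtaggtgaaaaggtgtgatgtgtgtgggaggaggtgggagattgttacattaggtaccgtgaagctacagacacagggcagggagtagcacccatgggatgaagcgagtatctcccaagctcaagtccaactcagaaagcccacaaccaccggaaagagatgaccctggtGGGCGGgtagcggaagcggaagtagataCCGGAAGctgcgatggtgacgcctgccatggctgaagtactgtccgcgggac
Dis3: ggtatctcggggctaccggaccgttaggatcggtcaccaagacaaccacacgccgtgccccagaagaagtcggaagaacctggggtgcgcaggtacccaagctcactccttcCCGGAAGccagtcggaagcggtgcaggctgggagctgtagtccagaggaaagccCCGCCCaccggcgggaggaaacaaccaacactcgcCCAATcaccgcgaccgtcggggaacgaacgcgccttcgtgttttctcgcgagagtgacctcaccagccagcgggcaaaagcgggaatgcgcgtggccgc
Exosc10: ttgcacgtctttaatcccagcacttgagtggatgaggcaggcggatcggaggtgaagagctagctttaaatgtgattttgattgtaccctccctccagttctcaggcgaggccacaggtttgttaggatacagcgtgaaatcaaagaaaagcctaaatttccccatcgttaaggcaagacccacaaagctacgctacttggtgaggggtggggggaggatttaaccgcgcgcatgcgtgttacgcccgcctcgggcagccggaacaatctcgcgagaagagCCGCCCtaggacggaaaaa

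Promoters were found for 8 of the 10 subunits, all except Exosc4 and Exosc9. The YY1 core was searched because the study names YY1 as a factor acting downstream of DHODH inhibition. The 8 subunits have 9 promoter windows, since Exosc10 has 2. The YY1 core matched in 2 of the 9, against 6.05% of the 32851 promoter windows in the table. Exosc2 had 3 matches, beginning 135 and 79 bases before the start and 23 bases after it, and each of the upstream pair followed a CCAAT match by a few bases. The match of Exosc10 lay 248 bases before its second annotated start, at base 148558713, whose window is not shown. GGGCGG matched in 7 of the 9 windows (35.7% of all), CCAAT in 4 (37.4%), CCGGAAG in 3 (8.86%), CACGTG in 1 (7.15%), the NRF1 motif in 1 (0.971%) and TATAAA in 0 (13.6%). A match describes the letters only, and YY1 core matches occurred in a subunit that fell, Exosc2, and in a subunit that was not called, Exosc10.

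The libraries held 6120030 to 7162036 counts each, and 1 CPM (a count scaled to the library size, with TMM factors) stood for 6.26 to 6.92 counts. Every subunit had at least 110 counts in every sample. Libraries were made with a QuantSeq kit, which reads the 3′ end of each transcript. Pairs of replicates differed beyond counting error, with 3.90 to 13.2 times the variance of counting in Vehicle and 14.1 to 25.1 times in AG636 (chi-square over its degrees of freedom), and the pairs with Vehicle sample 4 (9.31 to 13.2) lay above the other Vehicle pairs (3.90 to 4.59). In AG636 the widest pair was samples 2 and 3 (25.1), and no single sample stood apart. Of 5 leukemia markers, Kit (163 ± 9.62 CPM in Vehicle) and Myb (447 ± 47.6 CPM) were well expressed. Runx1t1 (13.1 ± 3.55), Cd34 (8.63 ± 4.35) and Mpo (3.18 ± 0.572 CPM in Vehicle) were low. Itgam, which encodes CD11b, had at most 4 counts in any sample. The summed level of 7 erythroid markers was 1980 to 5458 CPM in Vehicle and 4240 to 5478 CPM in AG636, that of 6 B cell markers 5.38 to 13.4 and 10.7 to 22.5 CPM, that of 6 T and NK cell markers 1.83 to 8.89 and 4.47 to 19.5 CPM, and that of 8 mature myeloid markers 43.9 to 99.0 and 16.02 to 195 CPM. Of these markers, Hbb-bt among the erythroid and Cd79a among the B cell genes were called higher in AG636 and the others were not called, and the part of these cells in the results was not tested. In bulk samples, fewer cells of a type and less RNA per cell cannot be told apart.

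In untreated leukemia the subunit transcripts were present at unequal levels. In Vehicle samples Exosc8 was the most abundant at 266 ± 4.50 CPM (SD, n = 4), a level that 94.5% of tested genes did not exceed, followed by Exosc7 at 101 ± 7.33 CPM. Exosc10 (75.7 ± 5.45), Dis3 (65.8 ± 3.50) and Exosc9 (64.4 ± 3.31 CPM) came next and overlapped with their neighbours in this order. Exosc2 (55.4 ± 3.31), Exosc1 (53.7 ± 3.62) and Exosc5 (49.3 ± 2.79 CPM) formed a further overlapping run, and Exosc4 (36.5 ± 1.67) and Exosc3 (30.3 ± 2.41 CPM) were lowest and did not overlap each other. These levels are not divided by length because the kit gives about 1 read position per transcript. Per kb of exon, Exosc8 remained the highest at 61.5 CPM per kb, Exosc1 (33.1) and Exosc3 (22.9) came next, and Dis3 (8.49) and Exosc5 (7.87 CPM per kb) were lowest, so only the place of Exosc8 did not depend on the scale.

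AG636 was compared with Vehicle to ask how blocking pyrimidine synthesis alters the transcripts of this RNA decay machine. Of the 10 subunits, 6 fell in AG636 and 0 rose (limma-voom, Benjamini-Hochberg adjusted p under 0.05 over all tested genes), against a background of 8.49% of tested genes called lower and 5.47% called higher. All 3 cap subunits fell, as did Dis3 and the ring subunits Exosc4 and Exosc7. Exosc10 and the ring subunits Exosc5, Exosc8 and Exosc9 were not called. All AG636 samples lay below all Vehicle samples for 6 of 10 subunits, the same 6, against 12.9% of tested genes, and the groups did not overlap in either direction for 22.2% of tested genes. The median log2 fold change of the subunits was −0.38, against −0.0056 over all tested genes. The log2 fold change was below 0 in 9 of 10 subunits and in 50.6% of all tested genes. The members were chosen with earlier results of these data known, so these counts describe them and are not a test of the complex.

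**Figure D1:**
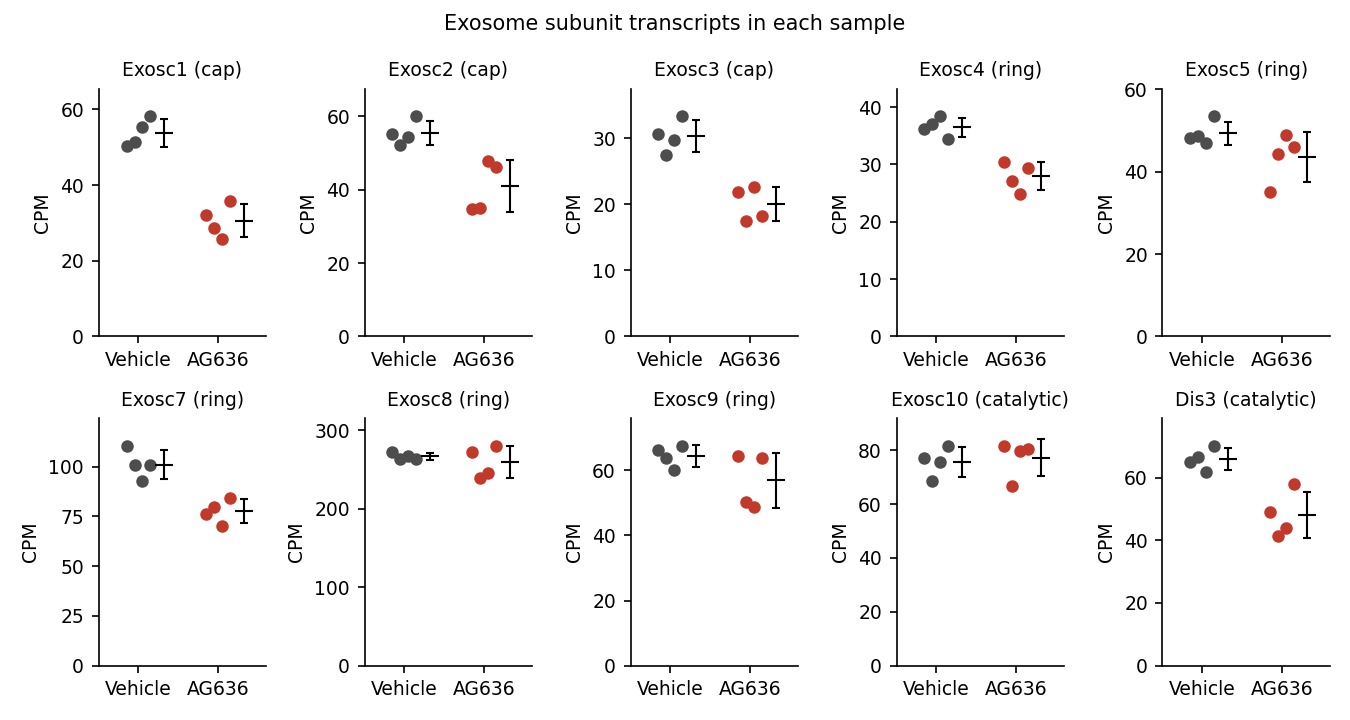
Level of each exosome subunit in CPM (y axis from 0) in the 4 Vehicle and 4 AG636 samples, with 1 point per sample in order of sample number and the mean ± SD in black. The AG636 points lie below every Vehicle point for Exosc1, Exosc2, Exosc3, Exosc4, Exosc7 and Dis3, and overlap them for Exosc5, Exosc8, Exosc9 and Exosc10.

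The cap subunits showed the largest fall of any group of subunits in summed level. Together they made up 139 ± 8.68 CPM in Vehicle and 91.5 ± 8.38 CPM in AG636, so the summed level fell by 34.3%, whereas that of the 5 ring subunits fell by 10.2% and that of the catalytic pair by 11.5%. Exosc8, which was not called, supplied 266 of the 518 CPM of the ring in Vehicle, and without it the summed level of the other 4 ring subunits fell by 18.0%. Within the cap the fall was uneven. By the limma log2 fold changes, the change was −43.3% for Exosc1, −34.0% for Exosc3 and −26.7% for Exosc2, the last close to the −27.3% of Dis3. Exosc1, the cap subunit also called Csl4 (ENSMUSG00000034321, chromosome 19, 41922980 to 41933314, − strand), had 50.3, 51.3, 55.2 and 58.1 CPM in Vehicle samples 1 to 4. In AG636 samples 1 to 4 it had 32.2, 28.6, 25.7 and 35.7 CPM. The highest AG636 sample thus lay well below the lowest Vehicle sample. The means were 53.7 ± 3.62 CPM in Vehicle and 30.5 ± 4.35 CPM in AG636, and the log2 fold change was −0.82 (SE 0.12, 95% interval −1.07 to −0.56, limma adjusted p = 0.00271), which placed it 92nd of 10911 genes by p-value.

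Exosc3, or Rrp40, a KH domain subunit of the cap (ENSMUSG00000028322, chromosome 4, 45316613 to 45342732, − strand), had 30.7, 27.5, 29.7 and 33.3 CPM in Vehicle samples 1 to 4 and 21.9, 17.6, 22.7 and 18.2 CPM in AG636 samples 1 to 4. The groups did not overlap, and the log2 fold change was −0.60 (SE 0.12, 95% interval −0.87 to −0.32, limma adjusted p = 0.0118). It was the least abundant subunit, with 110 to 219 counts per sample. Exosc2, or Rrp4 (ENSMUSG00000039356, chromosome 2, 31670715 to 31681349, + strand), had 55.1, 52.1, 54.3 and 59.9 CPM in Vehicle and 34.7, 35.0, 47.9 and 46.1 CPM in AG636. AG636 samples 3 and 4 lay close to the lowest Vehicle sample and samples 1 and 2 far below it. Its log2 fold change was −0.45 (SE 0.12, 95% interval −0.72 to −0.18, adjusted p = 0.0364).

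The catalytic subunits did not move together. Dis3 (ENSMUSG00000033166, chromosome 14, 99075206 to 99099770, − strand), a nuclease with both exonuclease and endonuclease activity, had 64.8, 66.5, 61.7 and 70.1 CPM in Vehicle samples 1 to 4 and 49.0, 41.3, 43.9 and 58.0 CPM in AG636 samples 1 to 4. All AG636 samples lay below all Vehicle samples, with AG636 sample 4 the nearest. The log2 fold change was −0.46 (SE 0.11, 95% interval −0.71 to −0.21, limma adjusted p = 0.0222). Exosc10, the nuclear subunit also known as Rrp6 (ENSMUSG00000017264, chromosome 4, 148558429 to 148582401, + strand), had 77.1, 68.5, 75.5 and 81.7 CPM in Vehicle and 81.5, 66.9, 79.8 and 80.7 CPM in AG636. The groups overlapped over nearly their whole range. Its log2 fold change was 0.03 (SE 0.10, adjusted p = 0.879), and the 95% interval, −0.18 to 0.24, does not reach the change of Dis3.

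To compare the catalytic subunits without reference to library scaling, the log2 ratio of Exosc10 to Dis3 was taken within each sample. It was 0.25, 0.04, 0.29 and 0.22 in Vehicle samples 1 to 4 and 0.73, 0.69, 0.86 and 0.47 in AG636 samples 1 to 4, with no overlap. In linear terms there were 1.03 to 1.22 Exosc10 reads per Dis3 read in Vehicle and 1.39 to 1.81 in AG636. The mean log2 ratio rose from 0.20 ± 0.11 to 0.69 ± 0.16 (SD, n = 4), a difference of 0.49 (two-sided exact permutation p = 0.0286, the smallest that 70 relabellings can give). Without Vehicle sample 2 or without Vehicle sample 4 the difference was 0.44 and 0.49 (exact permutation p = 0.0571 in both). Among all 45 pairs of subunits, chosen as a family after the values were seen, 20 ratios reached this smallest p, and none of them passed adjustment over the 45 (smallest adjusted p = 0.0644). Exosc1 and Exosc10 each reached this unadjusted p with 7 of the 9 other subunits, Exosc8 with 6, Dis3 with 4, and Exosc3 and Exosc5 with 2 each. The remaining subunits reached it with 3 each.

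**Figure D2:**
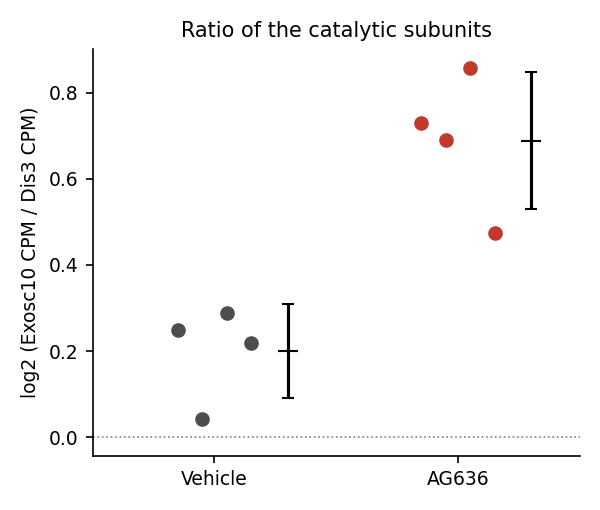
Log2 ratio of Exosc10 CPM to Dis3 CPM (y axis) in each Vehicle and AG636 sample, with the mean ± SD of 4 samples in black and a dotted line where the levels are equal. The Vehicle samples sit between 0.04 and 0.29 and the AG636 samples between 0.47 and 0.86.

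The ring subunits were split between called and uncalled genes. Exosc7, or Rrp42 (ENSMUSG00000025785, chromosome 9, 123113215 to 123136129, + strand), had 110.4, 100.5, 92.5 and 100.6 CPM in Vehicle and 76.0, 79.7, 70.1 and 84.4 CPM in AG636. The groups were separate and the log2 fold change was −0.38 (SE 0.09, 95% interval −0.58 to −0.18, limma adjusted p = 0.0206). Exosc4, or Rrp41 (ENSMUSG00000034259, chromosome 15, 76327397 to 76330677, + strand), had 36.3, 37.0, 38.4 and 34.4 CPM in Vehicle and 30.5, 27.1, 24.9 and 29.3 CPM in AG636. These groups were also separate, with a log2 fold change of −0.39 (SE 0.10, 95% interval −0.61 to −0.16, adjusted p = 0.0319).

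Exosc8, or Rrp43 (ENSMUSG00000027752, chromosome 3, 54728678 to 54735393, − strand), had 273, 264, 266 and 263 CPM in Vehicle and 272, 239, 245 and 280.0 CPM in AG636. The AG636 samples lay on both sides of the Vehicle samples. The log2 fold change was −0.04 (95% interval −0.22 to 0.13, limma adjusted p = 0.753) and turned to 0.03 with library size alone and to 0.00095 without Vehicle sample 4 and AG636 sample 2. Exosc9, or Rrp45 (ENSMUSG00000027714, chromosome 3, 36552606 to 36565727, + strand), had 66.3, 63.8, 60.0 and 67.5 CPM in Vehicle and 64.5, 50.3, 48.8 and 63.9 CPM in AG636, where samples 2 and 3 were low and samples 1 and 4 were within the Vehicle range. Its log2 fold change was −0.19 (95% interval −0.44 to 0.06, adjusted p = 0.286). Exosc5, or Rrp46 (ENSMUSG00000061286, chromosome 7, 25659164 to 25671368, + strand), had 48.2, 48.7, 47.0 and 53.4 CPM in Vehicle and 35.0, 44.4, 49.0 and 46.0 CPM in AG636, with sample 1 alone far below. Its log2 fold change was −0.19 (95% interval −0.44 to 0.06, adjusted p = 0.294). The intervals of Exosc5 and Exosc9 contain the values of Exosc4 and Exosc7, so a fall of that size was not excluded for them.

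The 3 ring subunits that were not called are also those whose 3′ exons overlap a gene on the other strand. Exosc8 shares 89 bases with Supt20, Exosc5 shares 355 bases with Tmem91, and Exosc9 shares 510 bases with Ccna2, the cyclin A2 gene, at the very end where this kit reads. Ccna2 had 9448 counts over all samples against 3180 for Exosc9, with a log2 fold change of 0.32 (adjusted p = 0.108 by limma, SE 0.12). Supt20 had 3449 counts against 13753 for Exosc8, with a log2 fold change of 0.33 (adjusted p = 0.0708), and Tmem91 only 150 counts. Whether the counting used strand is not given in the sources used here, and the part of these overlaps in the values of Exosc5, Exosc8 and Exosc9 was not tested.

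**Figure D3:**
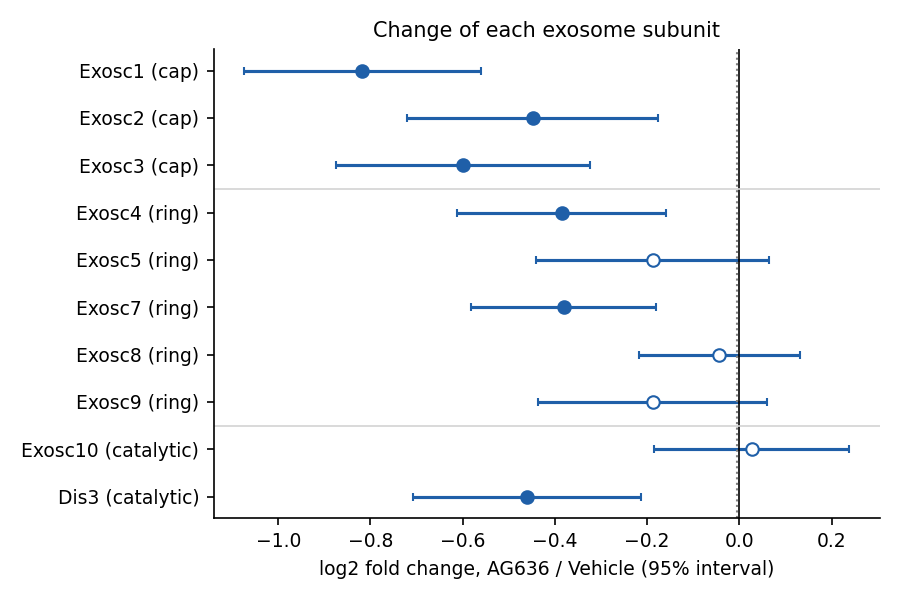
Log2 fold change of each subunit between AG636 and Vehicle (x axis) with its 95% interval, by place in the complex, filled where the limma adjusted p was under 0.05. The dotted line marks the median of all tested genes, −0.0056. The 3 cap subunits lie between −0.82 and −0.45, while Exosc8 and Exosc10 lie at −0.04 and 0.03.

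The samples differed in how far the subunits fell. In AG636 sample 2 all 10 subunits were below their Vehicle mean, in sample 3 there were 9, in sample 4 there were 8 and in sample 1 there were 7. The median log2 ratio of a sample to the Vehicle mean was −0.42, −0.39 and −0.41 in AG636 samples 1, 2 and 3 and −0.22 in sample 4. Vehicle sample 4 held the highest value of all 8 samples for 7 of the 10 subunits. The coefficient of variation was larger in AG636 (7.80 to 17.3%) than in Vehicle (1.69 to 7.95%) for each of the 10 subunits, and counting alone would give 2.38 to 7.07% in Vehicle and 2.44 to 8.78% in AG636.

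The calls rested unequally on single libraries. Exosc1 and Exosc3 kept an adjusted p under 0.05 in each of the 8 fits that left out 1 sample, whereas Exosc7 did so in 5, Dis3 in 4, and Exosc2 and Exosc4 in 2 each. The number of subunits called lower was 2 without Vehicle sample 1, 2 or 4, 3 without Vehicle sample 3, and 4 to 6 without an AG636 sample. Over all tested genes, those called lower went from 926 to 536, 609, 467 and 592 without Vehicle samples 1 to 4. They were 639 to 937 without an AG636 sample, so the loss of calls was not particular to the subunits. All 6 kept a negative log2 fold change in each alternative tried. With library size alone, which changed the share of lower genes among all calls from 60.8% to 38.3%, the subunits called lower were 3, namely Exosc1, Exosc3 and Exosc7. With Vehicle sample 4 left out together with an AG636 sample of the widest pair, a choice made after the data were seen, the subunits called lower were 3 without AG636 sample 3 (Exosc1, Exosc2 and Exosc3) and 1 without AG636 sample 2 (Exosc1). Over all tested genes, 798 and 544 were called lower in these fits.

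Of the exosome subunits outside the 10, Exosc6, the remaining ring subunit, had 0 counts in every sample. All 1326 bases of its exon in the table lie within exons of Aars on the same strand, so its reads could not be separated from those of Aars, and the 0 sets no limit on its level. Dis3l, the cytoplasmic relative of Dis3, was low, with 8.89, 9.07, 11.1 and 10.2 CPM in Vehicle and 7.0, 7.50, 6.22 and 7.08 CPM in AG636. The groups did not overlap, but the log2 fold change of −0.49 (adjusted p = 0.0726 by limma, SE 0.17) did not pass the threshold.

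Many exosome genes start beside another gene on the opposite strand, and these neighbours were compared because they share the surrounding sequence. By the outermost starts in the table, a gene on the other strand started within 1000 bases of 7 of the 10 subunits and of 28.9% of tested genes. For Exosc3, 1 of the 7, this does not hold at the RefSeq start shown above. None of the 7 neighbours was called, against 14.0% of all tested genes called in either direction. With so few genes, that count does not show that the neighbours were unchanged. Exosc1 starts 166 bases from Zdhhc16, which had a log2 fold change of −0.26 (adjusted p = 0.224 by limma, SE 0.14), and Exosc7 starts 10 bases from Zdhhc3 (−0.15, adjusted p = 0.262). Both are palmitoyltransferase genes. Dis3 starts 346 bases from Pibf1, a centrosomal protein gene, which had a log2 fold change of 0.12 (adjusted p = 0.616).

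The change of the subunit was lower than that of its neighbour by 0.56 log2 units for Exosc1 and Zdhhc16 (difference −0.56), by 0.24 for Exosc7 and Zdhhc3 (−0.24), and by 0.57 for Dis3 and Pibf1 (−0.57), each with a two-sided exact permutation p of 0.0286 (adjusted p = 0.04 over 7 pairs). The same p-values were found for Exosc3 and Dcaf10 (difference −0.45) and for Exosc4 and Oplah (−1.20), although Oplah was low at 3.90 ± 0.997 CPM in Vehicle. The start of Exosc3 used for its pair is the outermost in the table, 22116 bases from the RefSeq start shown above. Dcaf10 does not start beside that RefSeq start. For Exosc5 and Bckdha the difference was −0.26 (exact permutation p = 0.371, adjusted p = 0.371), and for Exosc8 and Alg5 it was 0.09 (exact permutation p = 0.0571, adjusted p = 0.0666). The 5 pairs with the smallest p are those whose subunit had been called lower. Their p of 0.0286 is the smallest that 70 relabellings can give. Each difference uses the values that gave the subunit its call, so it is not separate evidence for that call. The comparison was not among those planned.

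**Figure D4:**
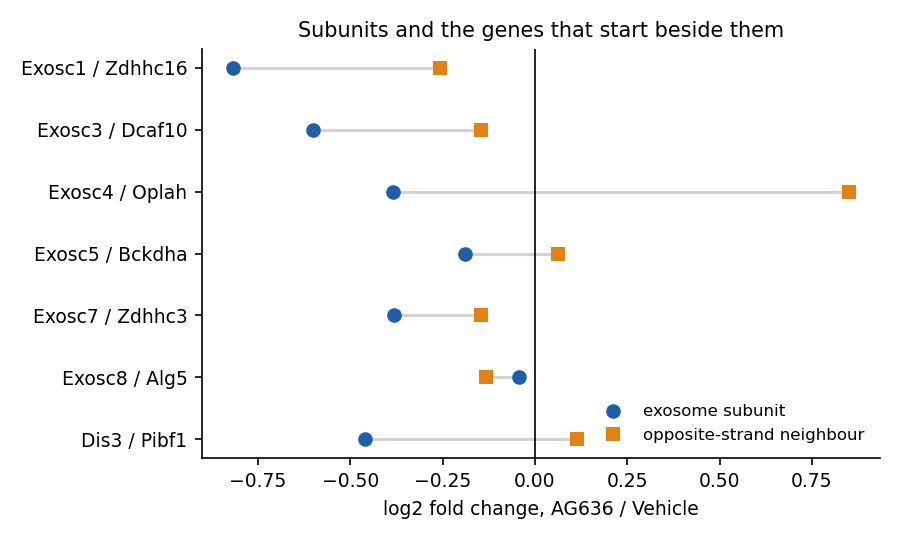
Log2 fold change between AG636 and Vehicle (x axis) of 7 exosome subunits (circles) and of the opposite-strand gene that starts within 1000 bases of each (squares), by the outermost starts in the table. The subunit lies to the left of its neighbour in 6 pairs, and Exosc8 lies to the right of Alg5.

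The exosome reaches its substrates through cofactors. Of 16 nuclear cofactors tested, 3 fell and 1 rose (25.0%, against 14.0% of all tested genes called in either direction), with a median log2 fold change of −0.09. Those that fell were Ncbp2 and Ncbp1, the subunits of the nuclear cap-binding complex, and Srrt, the Ars2 protein that links that complex to RNA decay. Ncbp2 had 89.4 ± 2.79 CPM in Vehicle and 60.4 ± 5.97 CPM in AG636 (SD, n = 4), and its log2 fold change was −0.57 (adjusted p = 0.00447 by limma, SE 0.09), and Ncbp1 from 114 ± 5.79 to 83.4 ± 9.40 CPM (−0.45, adjusted p = 0.0131, SE 0.10). Srrt had a log2 fold change of −0.49 (adjusted p = 0.0255). Zcchc7, a subunit of the TRAMP complex that adds short tails to exosome substrates, rose with a log2 fold change of 0.36 (adjusted p = 0.0164). Mtrex, the helicase that feeds RNA into the nuclear exosome, had 157 ± 18.9 CPM in Vehicle and 154 ± 9.41 CPM in AG636 (log2 fold change −0.03, adjusted p = 0.882). Srrt, Zcchc7 and Mtrex here, and Lsm2, Ttc37 and Hbs1l below, were named after their values were seen.

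In the cytoplasm the exosome is fed by the Ski complex. Of the 4 genes listed with it, among them Hbs1l, which is not a core subunit, 2 fell (against 8.49% of all tested genes called lower). These were Wdr61 (log2 fold change −0.32, SE 0.08, limma adjusted p = 0.0224) and the helicase Skiv2l (−0.50, adjusted p = 0.0480, SE 0.15). Ttc37 and Hbs1l had log2 fold changes of −0.18 and −0.22 without passing the test. The Skiv2l call passed in 1 of the 8 fits that left out a sample and in 4 of 13 other alternatives.

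Other RNA decay genes were examined beside the exosome. Of 18 decapping and 5′ exonuclease genes, 3 fell (16.7%, near the 14.0% of all tested genes called in either direction), namely the ring proteins Lsm6 (log2 fold change −0.42, limma adjusted p = 0.0246), Lsm7 (−0.35, adjusted p = 0.0346) and Lsm2 (−0.40, adjusted p = 0.0431), which bind U-rich RNA 3′ ends in decay and splicing. The median of that list was −0.12. The Lsm2 call passed in 1 of the 8 fits that left out a sample and in 3 of 13 other alternatives. That of Lsm7 passed in 2 of the 8 and 8 of the 13, and that of Lsm6 in 4 and 11. Of 14 deadenylase genes, Cnot10 fell (−0.51, adjusted p = 0.0227) and Cnot6l, a catalytic subunit, rose (0.30, adjusted p = 0.0472), which is 14.3% called, close to the 14.0% of all tested genes, with a median of 0.08. The Cnot6l call passed in 1 of the 8 fits that left out a sample. Of 10 genes of nonsense-mediated decay, 0 were called by limma, against 14.0% of all tested genes, and the median was −0.01. An unadjusted limma p under 0.05 was found for 2 of them and for 3351 of all 10911 tested genes. Of 9 other 3′ exonucleases, 1 was called (11.1%, against 14.0% of all tested genes), and the median was −0.14. This was Toe1, which trims small nuclear RNA ends and fell from 33.2 ± 1.12 to 22.8 ± 2.83 CPM (−0.55, limma adjusted p = 0.0115, SE 0.11).

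**Figure D5:**
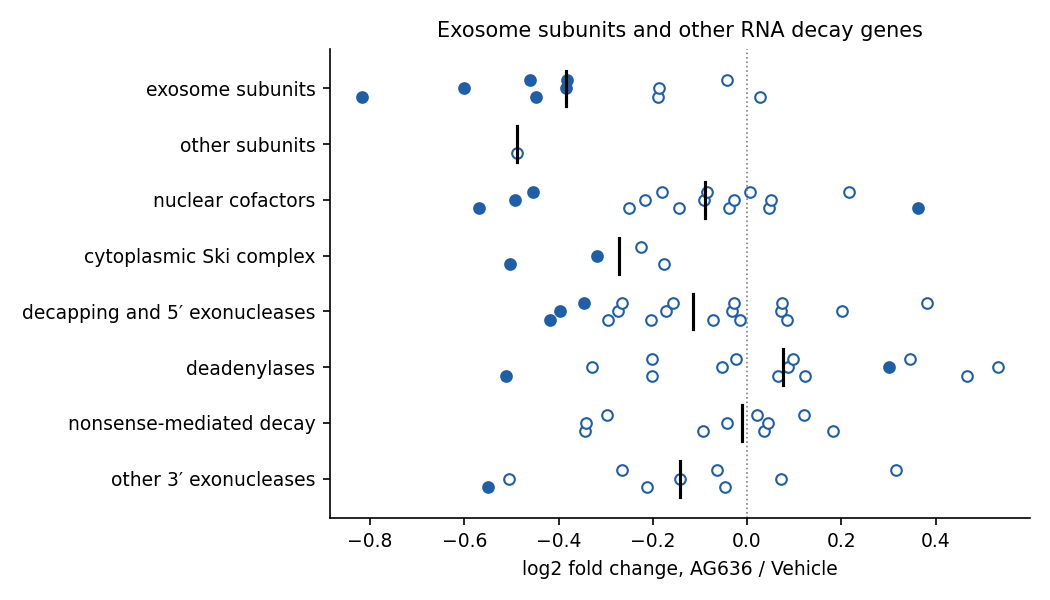
Log2 fold change between AG636 and Vehicle (x axis) of each tested gene in the exosome and in 7 other lists of RNA decay genes, with 1 point per gene, filled where the limma adjusted p was under 0.05, and a black bar at the median. The median of the exosome subunits lies at −0.38, those of the 6 lists with more than 1 tested gene lie between −0.27 and 0.08.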

How the data were processed

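Low-quality reads were dropped by the authors, who trimmed the rest with cutadapt (1.9.1 in the submitters' processing notes), mapped to mm10 (GRCm38) with HISAT2 (2.0.4) and deposited raw read counts per gene from featureCounts of Subread (1.5.0-p3). The methods of the study name other versions of cutadapt and Subread. Strand and multi-mapping settings are not given in the sources used here. Symbols came from a name table, which left 115 of 54838 genes without one, and 54037 of 54723 shared genes had the same span in GENCODE M21.

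Samples were grouped by title. Genes were kept by filterByExpr (minimum count 10), scaled by TMM and compared by limma-voom with group as the only term (limma 3.58.1, edgeR 4.0.16, R 4.3.3), as the study names limma. Tests were two-sided with Benjamini-Hochberg adjustment. CPM uses TMM-scaled library sizes, and log2 CPM has a prior count of 2. In simulated counts for this comparison (10805 genes tested), 70% of 200 genes changed by 1 log2 unit were recovered and 4.11% of calls were false. Smaller changes, such as those of the called subunits (−0.82 to −0.38), were not simulated. Each simulated gene had the same dispersion in both groups, whereas the AG636 replicates here varied more than the Vehicle replicates. The simulated share of false calls may therefore not hold for these data. The alternatives, DESeq2 (1.42.0) among them, are given after the report.

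The subunits and lists were chosen with earlier results of these data known. Named are the subunits, Exosc6, Dis3l, genes that overlap a subunit or start within 1000 bases of it, and the 2 called genes with the smallest p in each list. Protein sequences were not used here. Intervals cover the spread between these samples only.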

Additional observations from a re-analysis of the deposited data

Results flagged for a closer look

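The level of each subunit, the summed levels, the Exosc10 to Dis3 ratio and the total counts were examined for single samples that lie apart from their group, in 32 combinations of a measure and a group. In 1 of them a sample lay farther out than Dixon's ratio allows at 95%, against 1.6 that chance would give. AG636 sample 2 had 66.9 CPM of Exosc10 (Dixon ratio 0.883), below the 79.8 to 81.5 CPM of the other AG636 samples, and in that sample all 10 subunits were below their Vehicle mean.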

How the results depend on the processing

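The alternatives were edgeR's quasi-likelihood test, DESeq2, limma-trend, sample quality weights in voom, RLE, upper-quartile or no scaling factors, no filter on counts, at least 10 counts per sample, removal of mitochondrial genes, a replicate block, a stricter threshold, each sample left out, and, added after the data were seen, Vehicle sample 4 left out together with AG636 sample 3 or 2. The subunits called lower were 6, as in the values reported, under edgeR, DESeq2, limma-trend, quality weights, RLE, upper-quartile factors, 10 counts in every sample and no mitochondrial genes. They were 5 with the block, 4 with no filter, 3 with library size alone, 3 without Vehicle sample 4 and AG636 sample 3, 1 without Vehicle sample 4 and AG636 sample 2, and 1 (Exosc1) at an adjusted p under 0.01. Leaving out single samples gave 2 to 6 called subunits. Over all genes the 1523 calls became 435 at an adjusted p under 0.01, 945 without Vehicle sample 4 and AG636 sample 2, and 688 to 1706 with single samples left out. The 12 calls in the other decay lists became 1 at that threshold, 5 with library size alone, 3 without Vehicle sample 4 and AG636 sample 2, and 3 to 14 with single samples left out.

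The Exosc10 to Dis3 difference in log2 ratio was 0.43 to 0.56 with single samples left out, 0.44 and 0.49 without Vehicle sample 4 and AG636 sample 3 or 2 (exact permutation p = 0.1 in both, the smallest that 3 against 3 samples allow) and 0.49 as pairs with the replicate block (exact sign-flip p = 0.125, the smallest that 4 pairs allow). The log2 fold change of Exosc8 turned to 0.0265 with library size alone and to 0.00095 without Vehicle sample 4 and AG636 sample 2 (−0.0698 at the lowest with a sample left out), and that of Exosc10 to −0.0233 without Vehicle sample 2 and to −0.0018 without AG636 sample 1 (0.0921 at most with a sample left out), and neither gene was called in any alternative. Ordered per kb, 1 of the 10 subunits kept its place. Deviations of same-numbered samples from their group means had correlations of −0.14, 0.01, 0.20 and 0.14 over genes. Those of Vehicle sample 4 with AG636 samples 1 and 3 were 0.253 and −0.33. No pairing by number was seen, but with 4 samples in a group these correlations cannot exclude it. The block gave 1446 calls over all genes. In each case the cause of a lost call was not tested.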
